A study of Mus musculus with 2 samples.

Results

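T cell receptor (TCR) chains are encoded at 4 loci, whose variable, diversity, joining and constant segments are described here from 2 mouse 2-colour oligonucleotide arrays. A probe was taken as a member when its current symbol names such a segment of the Tra, Trb, Trd or Trg locus, or when its array name is Tcra, Tcrb, Tcrg or Tcrd with or without a segment suffix. This gave 23 gene names with 32 probes, of 27584 names and 41174 probes on the array. The Tra locus had 17 probes, Trb 11, Trd 1 and Trg 3.

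Each array compared double-positive (DP) thymocytes, cells with both CD4 and CD8, of 2 genotypes. Cells of Bcl11bF/FCD4Cre/Tcra-/- mice carried the dye Cy5 and are called deficient here, and cells of TCRa-/- mice carried Cy3 and are called control. Both groups are labelled as carrying Tcra-/-, and the series' design text states that such mice hold only DP cells from before selection. In the deficient mice Cre is driven by Cd4 control sequences and acts on a floxed Bcl11b gene, whose zinc finger protein regulates transcription in T lineage cells. Since Cre and floxed alleles are absent from the control label, Bcl11b loss and Cre itself cannot be told apart. The labels call the arrays biological replicates 1 and 2, do not say how many mice gave a sample or how DP cells were obtained, and do not say which part of Tcra is deleted. No array had the dyes in reverse orientation, so genotype and dye cannot be told apart. P-values rest on the spread between these 2 arrays, moderated by a variance pooled over all probes tested, and measure no other spread. The number of arrays limits the precision of every value.

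The segments of these loci are joined in developing thymocytes by the Rag1 and Rag2 recombinase. Trb is joined first, at the double-negative stage, and its chain pairs with the pre-TCR alpha chain. Tra is joined afterwards in DP cells, often in several rounds, and since Trd lies inside the Tra locus, this joining deletes Trd. A constant region probe can read every joined transcript of its locus and also transcripts from unjoined segments. A probe in a variable segment reads only transcripts that hold this segment or a close copy. In a bulk sample a lower signal from fewer cells that use a segment cannot be told apart from less of its RNA per cell.

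Signals are given as the processed signals of the scanner software, in intensity units, first in the deficient samples and then in the controls, replicate 1 before 2. A log2 ratio is deficient over control after loess normalisation, so a value of -1 is a 2-fold lower level, and means are given ± SE (limma, n = 2 arrays). A probe was kept when it was well above background in the deficient or in the control samples on both arrays. Of all probes 21539 were kept, with a median mean log2 ratio of 0.00. Of non-control spots, 50.5% to 56.5% were well above background in each of the 4 samples. The targeted gene had 2 probes, with Bcl11b log2 ratios of -1.40 and -0.28 at the first and -1.37 and -2.16 at the second. Whether these lie in the deleted part of Bcl11b is not given in the sources used here.

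Of the 32 TCR probes 27 were kept, 13 of Tra, 10 of Trb, 1 of Trd and 3 of Trg. The others were Trav13d-2, Trav7-6, Trav3-4, Trav17 and the third Tcrb-V13 probe, with signals between 6.95 and 69.7. The symbols of members need care. The array name Tcrb-V13 stands for 6 probes spread over 412.771 kb, which are numbered here by position. The symbol Trav14d-3-dv8 stands for a pair of probes 325.634 kb apart, and 1 probe could be Trav9d-3 or Trav9n-4. The mouse Trav array contains repeated blocks of near-identical segments, and a probe can read several copies. Positions below are those of the mm8 build in the array files.

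**Figure D1:**
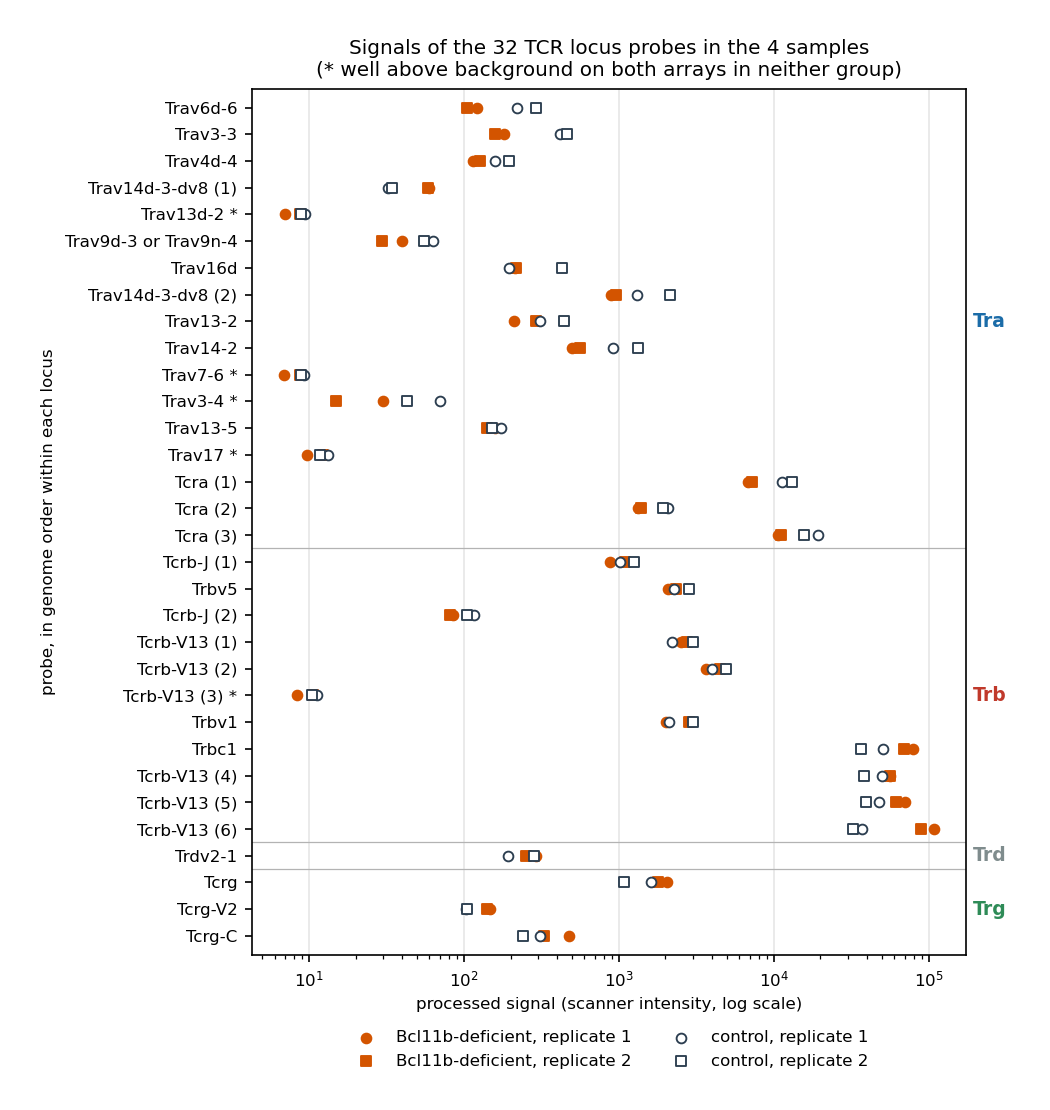
Processed signal (scanner intensity, log axis) of each of the 32 TCR locus probes in the 2 deficient samples (filled) and the 2 control samples (open), with circles for replicate 1 and squares for replicate 2. In the 3 Tcra probes the control samples lie to the right of the deficient ones, and in the last 4 Trb probes and the 3 Trg probes the deficient samples lie to the right.

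No TCR probe passed limma's test at an adjusted p of 0.05, and neither did any of the 21539 probes (0.0%). At an unadjusted p under 0.05, 17 of the 27 members were counted, 8 higher and 9 lower, beside 5824 (27.0%) of all kept probes. A fit of limma to the separate channels, which treats each sample as an observation and estimates the correlation within spots, called 4 members higher and 6 lower. It called 3.21% of all probes higher and 2.51% lower. Below, a value is described as above or below 0 on both arrays, which held for 36.6% and 36.9% of all kept probes. How often the groups do not overlap over all kept probes was not counted. Statements that groups did not overlap therefore describe the samples only, and do not set a member apart from other probes.

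The Tra locus had the most members below 0. Of its 13 kept probes 11 were below 0 on both arrays, 1 was above and 1 had opposite signs, and the median of their mean log2 ratios was -0.51. The members nearest the constant end are named Tcra on the array, and whether each of them reads the constant region is not given. The first, Tcra (1) at chromosome 14, 53158559 to 53158618, had signals of 6797 and 7254 in the deficient samples and 11336 and 13028 in the controls. The groups did not overlap at this probe, and both controls were the higher samples. Its log2 ratios were -0.76 and -0.83, and their mean was -0.80 ± 0.07 (limma adjusted p = 0.0903). This probe is printed at 10 spots on each array, whose log2 ratios had an SD of 0.022 on replicate 1 and 0.037 on replicate 2. These spots repeat the same hybridisation, so their SD does not measure the spread between arrays. The gap between the 2 arrays at this probe, -0.76 against -0.83, is small beside the ratio itself.

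Tcra (2) lies 21518 bases further along, at chromosome 14, 53180136 to 53181030, a span of 895 bases that is longer than the probe, so that it joins separate stretches of the genome. Its signals were 1322 and 1384 in the deficient samples and 2091 and 1914 in the controls, with a mean log2 ratio of -0.51 ± 0.10 (limma adjusted p = 0.112). Tcra (3), another 1012 bases on at 53182042 to 53182101, was the brightest probe of the locus. It gave 10598 and 11159 in the deficient samples and 19201 and 15602 in the controls, and a mean log2 ratio of -0.62 ± 0.12 (limma adjusted p = 0.111). At both probes the deficient samples lay close together and below both controls, and the ratio was further from 0 on replicate 1. All 3 Tcra probes gave clear signal in both groups although both carry Tcra-/-. Tcra (2) and Tcra (3) are described on the array as the same alpha chain mRNA, so they are not independent. The separate-channel fit called all 3 Tcra probes lower, with adjusted p of 0.0309, 0.0498 and 0.0490. With arrays centred on their median in place of loess, the means shrank to -0.35, -0.28 and -0.11, with limma adjusted p of 0.101, 0.225 and 0.677, and 2 of the 3 were below 0 on both arrays.

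Variable segments of the alpha chain gave dimmer signals. Of 14 Trav probes 10 were kept, and 8 of these were below 0 on both arrays, with a median of -0.31. Trav14-2 had signals of 499.9 and 565 in the deficient samples and 915 and 1332 in the controls. Its log2 ratios were -0.72 and -1.02, or -0.87 ± 0.11 on average (limma adjusted p = 0.0941). Trav3-3 had signals of 183 and 159 against 418 and 464, and a mean log2 ratio of -0.84 ± 0.09. The second Trav14d-3-dv8 probe had 896 and 957 against 1317 and 2146, and a mean log2 ratio of -0.74 ± 0.16. Trav6d-6 had 122 and 105 against 221 and 293, and a mean log2 ratio of -0.64 ± 0.11. In each of these 4 probes both deficient samples were below both controls, and replicate 2 had the ratio further from 0. Of the 4, the separate-channel fit called Trav14-2 (adjusted p = 0.0480), Trav3-3 (adjusted p = 0.0267) and Trav6d-6 (adjusted p = 0.0490) lower.

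Other Trav probes were nearer to 0 or went the other way. Trav13-2 was at -0.34 and -0.37 on the 2 arrays, with signals of 209 and 292 in the deficient samples and 310 and 439.7 in the controls. Trav4d-4 was at -0.18 and -0.26, and the probe of Trav9d-3 or Trav9n-4 at -0.17 and -0.18. Trav13-5 was at -0.04 and -0.03, with signals of 159 and 140.2 in the deficient samples and 173 and 152 in the controls, so its groups overlapped. Trav16d had opposite signs, 0.10 and -0.64, because the control signal was 196 on replicate 1 and 429 on replicate 2 while the deficient samples gave 214 and 218. The first Trav14d-3-dv8 probe was above 0 on both arrays, at 0.26 and 0.24. Its signals were 59.4 and 58.9 in the deficient samples and 32.6 and 34.2 in the controls, which were not well above background. Its level was therefore at least 1.14-fold higher in the deficient samples, taking as the control level, on each array, the higher of the probe's own signal and the lowest signal among probes well above background.

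Ratios of the Trav probes were mostly further from 0 on the scale of the processed signals, which differ in background correction and dye normalisation. From these the mean log2 ratio was -1.37 for Trav3-3, -1.17 for Trav6d-6, -1.05 for Trav14-2 and -0.86 for the second Trav14d-3-dv8 probe. The median of the 10 Trav probes moved from -0.31 to -0.68 on that scale, close to the -0.67 of the 3 Tcra probes. On that scale too, 8 of the 10 were below 0 on both arrays. Across the 10 kept Trav probes, Spearman's rho of the mean log2 ratio with position on the chromosome was 0.03, and with mean log2 intensity it was -0.78. From the processed signals these were 0.35 and -0.41, so both relations varied with the scale. All of these points come from the same 4 samples.

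**Figure D2:**
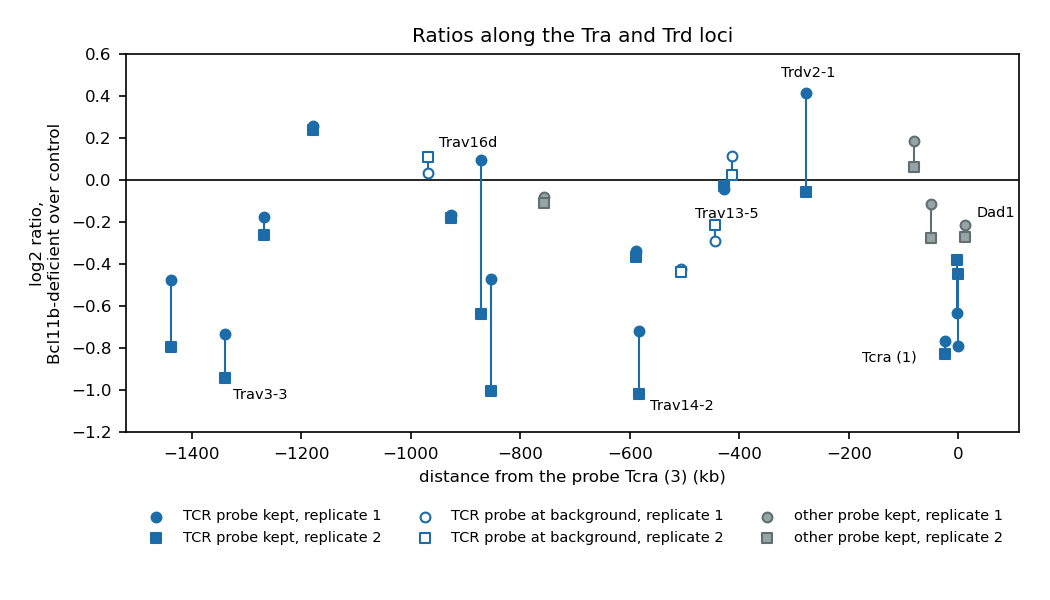
Log2 ratio of deficient over control on each array (circles replicate 1, squares replicate 2) against the distance in kb from the probe Tcra (3), for TCR probes that were kept (filled blue), TCR probes at background (open) and other kept probes in or beside the locus (grey). Trav probes far below 0 lie at the end of the Trav array away from the Tcra probes and in its middle, beside probes nearer to 0. The kept Trav probe closest to the Tcra probes lies near 0. Dad1 lies just past the Tcra probes at -0.21 and -0.27.

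Ratios of unlike size stood next to each other along the locus. Trav16d and the second Trav14d-3-dv8 probe are neighbours among the members, as are Trav13-2 and Trav14-2, whose mean log2 ratios were -0.35 and -0.87. The kept Trav probes ran over 1011 kb, from Trav6d-6 to Trav13-5. Dad1, a gene for a subunit of the oligosaccharyl transferase that lies past the Tra constant region and its enhancer, had signals of 5976 and 5113 in the deficient samples and 6862 and 5967 in the controls. Its mean log2 ratio was -0.24, nearer to 0 than those of the 3 Tcra probes beside it, and was 0.10 with median centring. The difference between Dad1 and the Tcra probes was not tested.

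Trdv2-1 was the only member of the delta locus, at chromosome 14, 52904586 to 52904645. It had signals of 293 and 253 in the deficient samples and 192 and 283 in the controls, so that the groups overlapped. Its log2 ratios had opposite signs, 0.41 and -0.06, and the mean of 0.18 ± 0.14 had a limma adjusted p of 0.466. No constant, diversity or joining probe of Trd was among the members, so the locus is described by a single variable segment.

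The Trb probes are described here in parts that differ in both position and brightness. At 6 probes that lie before the constant end, the levels of the groups were close, and at 4 brighter probes of the constant end the deficient samples were higher. A probe outside the members that lies between Trbc1 and Tcrb-V13 (4) had opposite signs, 0.81 and -0.40. Trbv5 and the probes Tcrb-J (1) and Tcrb-J (2) lie within 238 bases, at chromosome 6, 40992260 to 40992497, so they may read 1 transcript and are not independent. Trbv5 had signals of 2071 and 2336 in the deficient samples and 2269 and 2856 in the controls. Its log2 ratios were -0.15 and -0.24, and those of the Tcrb-J probes lay between -0.14 and -0.11.

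Further along, Tcrb-V13 (1) had log2 ratios of 0.19 and -0.08, and Tcrb-V13 (2) had -0.16 and -0.13. Tcrb-V13 (2) was the brighter, with signals of 3636 and 4481 in the deficient samples and 3969 and 4893 in the controls. The probe mapped to Trbv1 had signals of 2003 and 2818 in the deficient samples and 2122 and 2997 in the controls, and a mean log2 ratio of -0.06. It lies only 3224 bases before the Trbc1 probe, while the RefSeq gene table puts Trbv1 at the opposite end of the locus, so the segment it reads is uncertain. Over these 6 probes the median was -0.13 and 5 were below 0 on both arrays, but none had an unadjusted p under 0.05. With arrays centred on their median in place of loess, 4 of the 6, namely Tcrb-J (1), Trbv5, Tcrb-V13 (2) and the Trbv1 probe, had means above 0.

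At the constant end Trbc1, the first of the 2 beta constant regions, had its probe at chromosome 6, 41468191 to 41468868. Its signals were 79114 and 69506 in the deficient samples and 50289 and 36490 in the controls, with no overlap. Its log2 ratios were 1.12 and 1.33, or 1.22 ± 0.09 on average (limma adjusted p = 0.0879). The probes Tcrb-V13 (4), (5) and (6) follow at 41476339 to 41477923, and the first of these is 7471 bases past the Trbc1 probe. The RefSeq table (GRCm38) orders Trbc2 and Trbv31 last at this end, so that the array name Tcrb-V13 need not describe what these 3 probes read. The array describes all 3 as the same beta chain mRNA, so they are not independent. Their mean log2 ratios nevertheless ran from 0.79 to 1.93.

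Tcrb-V13 (6) had the highest ratio of all members. Its signals were 107345 and 89711 in the deficient samples and 37172 and 32428 in the controls, and both deficient samples were more than 2-fold above both controls. Its log2 ratios were 1.99 and 1.87, or 1.93 ± 0.08 on average (limma adjusted p = 0.0842). Tcrb-V13 (5) had 70494 and 61173 against 47906 and 39451, with log2 ratios of 0.99 and 1.02, just short of 2-fold on replicate 1. Tcrb-V13 (4) had 56078 and 55798 against 50084.5 and 38296, with log2 ratios of 0.63 and 0.94. Trbc1 and Tcrb-V13 (6) were the 2 members at least 2-fold higher on both arrays, beside 0.673% of all kept probes. No member was at least 2-fold lower on both, beside 0.218% of all kept probes. The separate-channel fit called all 4 probes of the constant end higher, with adjusted p between 0.0191 and 0.0350.

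The 4 probes of the constant end are among the brightest on the arrays, ranked 5, 12, 25 and 89 by mean intensity of the 21539 kept. No spot of theirs was marked saturated. Probes of this brightness were above 0 as a rule. The 50 brightest probes had a median log2 ratio of 1.09, with 48 of them above 0 on both arrays and 27 at least 2-fold higher on both. The 100 brightest had a median of 0.98. The part that brightness has in these 4 ratios was not tested beyond 2 other scales. From the processed signals the means were 0.79 for Trbc1 and 0.35, 0.60 and 1.50 for Tcrb-V13 (4), (5) and (6), where the 50 brightest had a median of 0.70. Relative to the running median of probes of like intensity, they were 0.28 for Trbc1 and 0.18, 0.06 and 0.98, where the 50 brightest had a median of 0.17. On this last scale Trbc1, Tcrb-V13 (5) and Tcrb-V13 (6) are set against the same running median, not one at their own brightness. On both scales Tcrb-V13 (6) kept the highest value of the 4, and Tcrb-V13 (5) lay below the median of the 50 brightest.

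**Figure D3:**
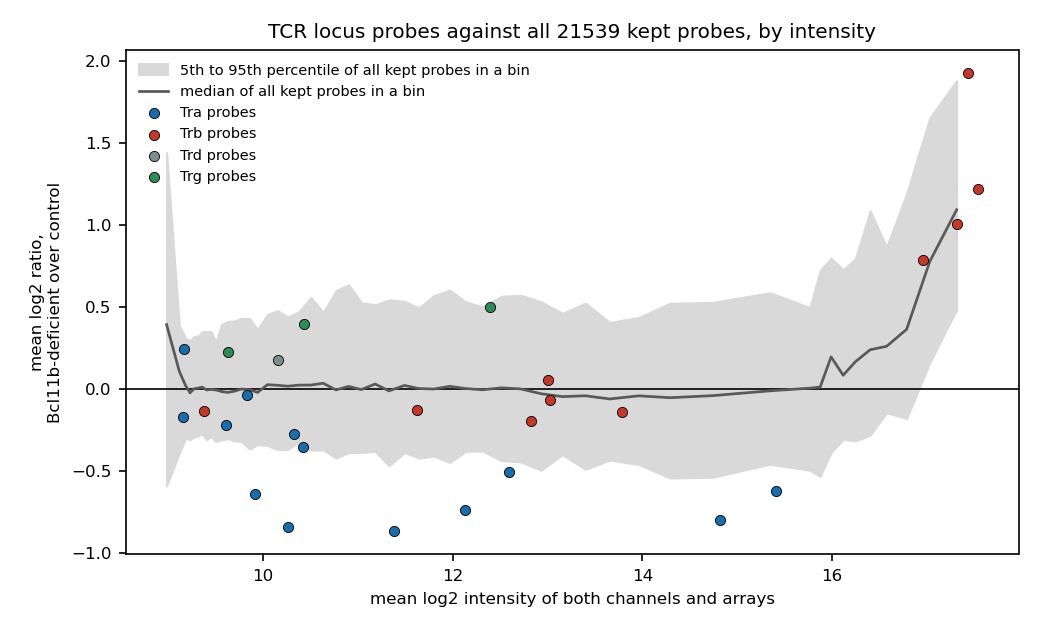
Mean log2 ratio of deficient over control against mean log2 intensity for the 27 kept TCR locus probes (coloured by locus), with the median (line) and the 5th to 95th percentile (band) of all kept probes in bins of intensity. The line climbs to 1.09 in the bin of the 50 brightest probes, where 3 Trb probes lie, while 8 of 13 Tra probes lie under the band of their own bin at intensities where the line is near 0.

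The Tra probes did not lie at such an extreme of brightness. The 100 kept probes nearest in intensity to each Tra probe had median log2 ratios close to 0, and 11 of 13 Tra probes were below that median on both arrays. Loess already brings such medians near 0, so this comparison cannot show what part brightness has, which was not tested. After centring on the running median of probes of like intensity, 10 of 13 Tra probes were below 0 on both arrays. This held for 7674 of all 21539 kept probes. The median of the Tra probes on that scale was -0.52, and with arrays centred on their median in place of loess it was -0.26. Centring on probes of like intensity left the median of the Trb probes at 0.02 and that of the Trg probes at 0.39.

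All 3 gamma locus probes were above 0 on both arrays. The probe named Tcrg, at chromosome 13, 19312635 to 19314713, had signals of 2054 and 1783 in the deficient samples and 1611 and 1087 in the controls. Both deficient samples were above both controls, and the mean log2 ratio was 0.50 ± 0.12 (limma adjusted p = 0.132). Tcrg-C, named for a gamma constant region and at 19352332 to 19357039, had 476 and 329 against 310 and 242, and a mean log2 ratio of 0.40 ± 0.08 (limma adjusted p = 0.117). Tcrg-V2, a variable segment probe between them, had 147 and 141 against 104 and 104, and a mean log2 ratio of 0.23 ± 0.07. The unadjusted p was under 0.05 for all 3, a mark that 27.0% of all kept probes met. Tcrg and Tcrg-C span 2079 and 4708 bases, so each joins separate stretches of the genome. The array files also hold a predicted gene, LOC624071, described as similar to a TCR gamma chain, which the rule for members did not take in. Its brighter probe had signals of 9531 and 9573 in the deficient samples and 6014 and 4447 in the controls, and log2 ratios of 0.63 and 1.06. Its other probe had log2 ratios of 0.86 and 0.64, so its 2 probes were above 0 on both arrays like the 3 gamma members.

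**Figure D4:**
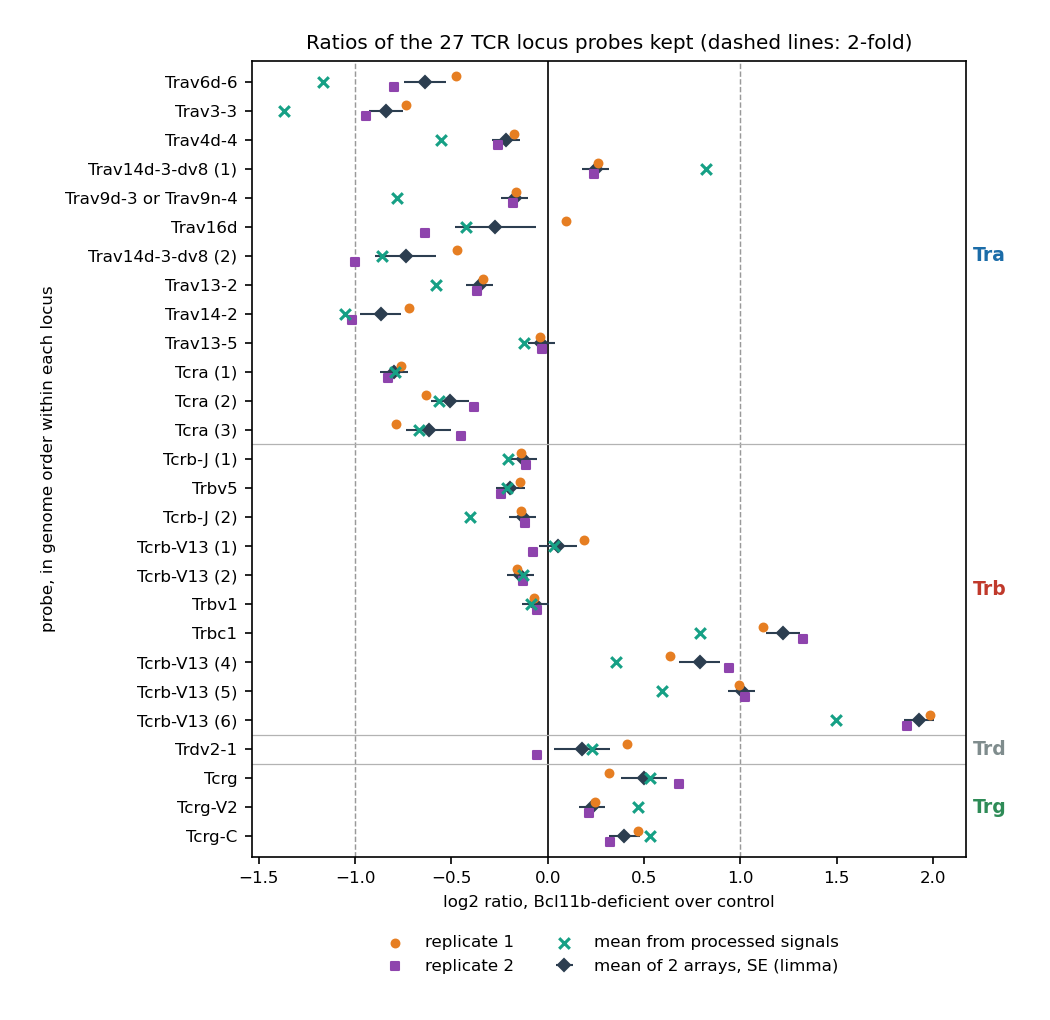
Log2 ratio of deficient over control for the 27 kept TCR locus probes, with replicate 1 (circles), replicate 2 (squares), their mean with the limma SE (diamonds) and the mean from processed signals (crosses), and dashed lines at 2-fold. The Tcra probes and most Trav probes lie left of 0, the first Trb probes near 0, the last 4 Trb probes between 0.79 and 1.93 by their means, and the Trg probes right of 0.

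The partner chains of the receptor were measured next to the segments. CD3 chains and Cd247 carry the signal of the receptor into the cell, and Ptcra encodes the pre-TCR alpha chain. All 5 genes of this list were below 0 on both arrays, with a median of -0.43, and 4 of 5 had an unadjusted p under 0.05. Cd3d had signals of 25712 and 22243 in the deficient samples and 38372 and 37499 in the controls. Cd3g had 14706 and 14484 against 23841 and 25482, and Cd247 had 12201 and 12264 against 20854 and 19662. The groups did not overlap at these 3 genes, which describes these samples only. Cd3e was at -0.11 and -0.10 and Ptcra at -0.23 and -0.25. The direction of this list depended on the scaling. With median centring Cd3d had a mean of 0.23 and Cd3e of 0.16, while Cd3g was at -0.05, Cd247 at -0.11 and Ptcra at -0.01.

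Of 14 genes of the recombination machinery, 6 were above 0 on both arrays and 7 below, with a median of -0.05. Rag1, a subunit of the recombinase, had signals of 46863 and 39640 in the deficient samples and 79061 and 65262 in the controls, and log2 ratios of -0.23 and -0.32. Rag1 ranks 32 by intensity, and its mean of -0.27 became -0.74 from the processed signals, -1.22 relative to probes of like intensity and 0.46 with median centring. Rag2, the other subunit, had 497 and 425 against 734 and 822, and log2 ratios of -0.43 and -0.71. Dntt, which encodes the terminal transferase that adds bases at segment joints, was the 1 gene of the list at least 2-fold higher on both arrays. Its signals were 101833 and 87490 against 45474 and 44308, and its log2 ratios were 1.71 and 1.45. The Dntt signals lie in the range of those of the Trb constant end, and its mean was 1.07 from the processed signals and 0.63 relative to probes of like intensity. On that last scale Rag1 and Dntt are set against the same running median, that of the brightest probes.

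Of 17 factors known to bind TCR enhancers or promoters, 3 were above 0 on both arrays and 6 below, with a median of 0.00, and none was 2-fold changed on both. Ets2, a member of the ETS family of transcription factors, came nearest at -0.94 and -1.15. From the processed signals it was at -1.09 and -1.27, past 2-fold on both arrays, and the separate-channel fit called it lower (adjusted p = 0.0240). It was named after its values were seen. Of 22 genes that lie within or beside the loci, 13 were kept, 5 above 0 on both arrays and 5 below, with a median of -0.06. None of the 13 was 2-fold changed on both arrays on the loess scale. Limma's adjusted p was at least 0.0842 for every gene of these lists, as for every probe.

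Markers of other cells that a thymocyte sample can hold moved in part with the members, and their part in the values above was not tested. Of 9 gamma delta T cell markers 4 were kept, all below 0 on both arrays, with summed signals of 2785 and 2337 in the deficient samples and 3737 and 3999 in the controls. Sox13 and Il23r were not kept. Sox13 had signals of 42.8 and 24.7 in the deficient samples and 21.7 and 10.4 in the controls, and Il23r had 26.9 and 29.0 against 11.6 and 11.5, higher in the deficient samples. Zbtb16, Scart1 and Scart2 were matched to no probe. Of 7 double-negative stage markers 6 were above 0 on both arrays, with summed signals of 9986 and 8354 against 7099 and 4974. Of 8 natural killer cell markers 6 were kept, 4 above 0 on both arrays and 1 below. Their summed signals were 8361 and 9131 against 3823 and 3828. Ncr1 and Gzmb were at background. Of 9 DP markers, which include Rag1, Rag2 and Ptcra from the lists above, 7 were below 0 on both arrays and 2 above. Their summed signals were 183974 and 160938 against 239177 and 204735.

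Of 7 B cell markers 5 were kept, 3 below 0 on both arrays and none above, with summed signals of 3868 and 2853 in the deficient samples and 6068 and 3610 in the controls, and Cd79a and Ebf1 were at background. Of 7 macrophage markers 6 were kept, 4 above 0 on both arrays and 1 below, with 29098 and 30549 against 26170 and 10184, and Mertk was at background. Of the erythroid markers 2 were kept, both of opposite sign on the 2 arrays, with 24424 and 43462 against 39737 and 9945, while Ermap was at background and Hbb-b1 was matched to no probe. The control of replicate 2 had less macrophage and erythroid signal than the other samples, and the part of this in the TCR ratios was not tested.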

How the data were processed

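DP thymocyte RNA of 2 genotypes was read on 2 2-colour arrays, on the same slide by the file headers. Scans were read with Agilent Feature Extraction 9.5.3.1, per the submitters' processing notes. The deposited mean and background signals are scanner intensity values without correction, and the deposited processed signals are intensity values corrected for background and dye by that software, per the file headers. The log ratio the authors deposited is a log10 of processed Cy5 over Cy3 signal, and the deposited value table of the series, of unstated unit, holds that log10 ratio to within 0.005, with a median of 0 on each array.

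Mean signals were corrected with normexp (offset 50) and loess within arrays in limma 3.58.1 (R 4.3.3, statmod 1.5.0). Controls had weight 0, and 108 and 116 outlying spots were left out. Spots were averaged per probe and each probe's mean log2 ratio was tested against 0, with Benjamini-Hochberg adjustment over 21539 probes. The test was checked on simulated data. For list genes the brightest kept probe was used. Named were constant region probes, up to 6 other probes a locus of the same sign on both arrays, the brightest of each locus, 2-fold changes, the receptor complex, Rag1, Rag2, Dntt, Dad1 and Bcl11b. Other members were added to give each a value. Members and lists were chosen with earlier results of these data known. A marker gene of the lists is not reported here.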

Additional observations from a re-analysis of the deposited data

How the results depend on the processing

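Counts and medians were recomputed under 9 other settings and on each array alone. Of the 27 probes, none was called by limma. Calls among them numbered 6 with arrays centred on their median in place of loess and 10 in the separate-channel fit. Over all probes these settings called 972 (848 higher) and 1231 (691 higher), and calls numbered 30 with the processed signals and 17 with the value table. Median centring moved the median of all probes to 0.12. No test was possible on 1 array. Members at least 2-fold higher on both arrays numbered 1 with processed signals, 1 with the value table, 4 with median centring and 0 with centring on probes of like intensity, which was chosen after seeing the data, and 2 to 3 on 1 array alone. Members 2-fold lower numbered 1 with processed signals, 1 with the value table and 0 to 2 on 1 array alone.

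The Tra median of -0.51 was -0.67 with processed signals, -0.67 with the value table, -0.26 with median centring, -0.35 with no filter, -0.62 with both channels above background, and -0.47 to -0.45 on 1 array alone. The Trb median of -0.00 was 0.25 with median centring and -0.07 to 0.06 on 1 array alone. The Trg median of 0.40 was 0.53 with processed signals, 0.53 with the value table, 0.48 with median centring, 0.39 with background from negative controls, 0.41 with an offset of 16, 0.39 with centring on probes of like intensity, and 0.32 on either array alone. Trdv2-1, the Trd median, was -0.0561 without replicate 1 and 0.41 without replicate 2. With median centring 4 probes changed sign, Tcrb-J (1) to 0.0502, Trbv5 to 0.0488, Tcrb-V13 (2) to 0.19 and the Trbv1 probe to 0.20. Trav16d was 0.10 without replicate 2 and -0.64 without replicate 1, and Tcrb-V13 (1) was -0.0775 without replicate 1 and 0.19 without replicate 2. The cause of these changes was not tested. The ratio within each array pairs the groups, so no further pairing of samples was run. Signals near background limit the ratios of dim Trav probes.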

Other observations

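The other antigen receptor loci, those of immunoglobulin, differed between the arrays. These 99 probes were singled out after their values were seen. In the control of replicate 1, 60 of them were well above background, and in the control of replicate 2 23 were. The deficient samples had 37 and 26. On replicate 1, 36 probes were well above background in the control at a signal at least 2-fold that of the deficient sample, and on replicate 2 this held for 1. The probe named Ighg, for an immunoglobulin heavy chain, had a signal of 10723 in the control and 242 in the deficient sample of replicate 1, and of 10.8 and 11.0 on replicate 2, where it was not well above background. Whether this difference between the arrays has a part in the TCR ratios was not tested.

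Other probes of the loci, whose names the rule for members did not take in, were also measured. One probe described as TCR alpha chain, which joins stretches 468316 bases apart, had signals of 18.0 and 18.8 in the deficient samples, not well above background, and 74.5 and 71.7 in the controls, with log2 ratios of -0.39 and -0.39. A probe described as a thymus cDNA at the Trb constant end, between Trbc1 and Tcrb-V13 (4), had log2 ratios of 0.81 and -0.40, and did not share the sign of its neighbours on replicate 2. Further kept probes went either way. Below 0 were another probe described as TCR alpha, at -0.11 and -0.28, LOC665425, similar to a beta variable region, at -0.22 and -0.05, and EG195281 in Tra, at -0.08 and -0.11. Above 0 were A630038E17Rik in Tra, at 0.19 and 0.06, and E430024C06Rik in Trb, at 0.41 and 0.02.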
